A study of Mus musculus with 4 samples.

Results

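The clustered histone genes are the genes that lie in the Hist1, Hist2, Hist3 and Hist4 clusters and make most of the histone protein of dividing cells. They were taken by symbol, as every gene whose name begins with Hist1h, Hist2h, Hist3h or Hist4h, and they numbered 67 of the 22072 genes listed. Read from the symbols, 6 were H1, 18 H2a, 18 H2b, 12 H3 and 13 H4 genes. The H2b count includes Hist3h2bb-ps and the H3 count Hist2h3c2-ps, both pseudogenes by symbol. The study measured RNA by sequencing in laser-captured mesenchyme of the upper and lower molars of mouse embryos. Mutant embryos were Bmp4f/f;Wnt1Cre, in which the Wnt1 promoter drives Cre recombinase in neural crest cells and their descendants, and control embryos were Bmp4f/+. All were at embryonic day 13.5 on a mixed background, and every embryo carried at least 1 floxed Bmp4 allele. Each of the 4 combinations of genotype and molar was 1 library, made per the series' design text from pooled tissue of 3 pairs of samples. The control label names no Cre, so effects of Cre itself and of Bmp4 loss cannot be told apart.

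Clustered histone genes are switched on as cells enter S phase, when new DNA has to be packed into nucleosomes, and their mRNAs are destroyed when replication ends. Most have no introns, and the S phase form of their mRNA has no poly(A) tail, although some members are also made as longer polyadenylated mRNAs. The S phase form ends in a conserved stem-loop that is bound by the stem-loop binding protein SLBP and cut with the help of the U7 small nuclear ribonucleoprotein. H2A, H2B, H3 and H4 form the nucleosome core, and H1 binds the linker DNA between cores.

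The stem-loop is shown because it is what the members share in their mRNA apart from the protein they encode. In mouse GENCODE M21 transcripts a match to the 16-base stem-loop pattern was found in 46 of the 67 members, which is 68.7%, and in 10 of 21834 other protein-coding genes, which is 0.0458%. The pattern was found in 4 of 6 H1, 11 of 18 H2a, 10 of 18 H2b, 9 of 12 H3 and 12 of 13 H4 genes. Many transcripts without a match end at or near the stop codon, so the lack of a match describes those transcript models only. Capitals mark the paired stem on either side and lower case the loop, read 5′ to 3′ on the mRNA strand and written with T.
Stem-loop of 26 H1, H2a, H2b and H3 genes: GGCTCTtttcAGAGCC
Stem-loop of 6 H1, H2b and H3 genes: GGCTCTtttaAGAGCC
Stem-loop of 7 H4 genes, Hist1h4d among them: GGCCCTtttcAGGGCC
Stem-loop of 2 H4 genes, Hist1h4b and Hist1h4j: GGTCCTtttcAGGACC
No stem-loop found in an H4 gene was found in another class, and the most frequent one was shared by H1, H2a, H2b and H3 genes.

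The promoters of the highest member of each class are shown because members are switched on together in S phase. Each is the 150 bases before the RefSeq start on build GRCm38.p6, on the gene's strand, with capitals for matches on either strand to 3 motifs. The motif CCAAT is bound by NF-Y. The motif TATAAA is a form of the TATA box. The octamer ATTTGCAT is bound by Oct factors.
Hist1h1b, chr13:21780626-21780775, minus strand: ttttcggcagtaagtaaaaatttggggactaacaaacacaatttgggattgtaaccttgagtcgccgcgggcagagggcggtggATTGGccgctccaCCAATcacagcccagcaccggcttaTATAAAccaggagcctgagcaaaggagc
Hist1h2ak, chr13:21753913-21754062, minus strand: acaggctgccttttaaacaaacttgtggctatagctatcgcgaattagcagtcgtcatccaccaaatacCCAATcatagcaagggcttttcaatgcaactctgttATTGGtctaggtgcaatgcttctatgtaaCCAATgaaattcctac
Hist1h2bm, chr13:21721894-21722043, plus strand: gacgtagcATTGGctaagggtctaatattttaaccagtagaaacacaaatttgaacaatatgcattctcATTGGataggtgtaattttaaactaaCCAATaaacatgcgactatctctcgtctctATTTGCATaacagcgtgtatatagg
Hist2h3b, chr3:96268504-96268653, plus strand: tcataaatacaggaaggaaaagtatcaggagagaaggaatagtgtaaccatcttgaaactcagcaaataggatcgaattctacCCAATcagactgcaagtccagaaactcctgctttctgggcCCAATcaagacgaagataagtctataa
Hist1h4d, chr13:23581418-23581567, plus strand: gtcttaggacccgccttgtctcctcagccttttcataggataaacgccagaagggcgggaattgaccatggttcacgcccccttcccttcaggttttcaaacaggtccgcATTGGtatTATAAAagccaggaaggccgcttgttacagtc
Over the 300-base RefSeq promoters, from 250 bases before to 50 after the start, 61 members had 62 entries. The octamer was in 7 of 18 H2a and 7 of 16 H2b entries and in no H1, H3 or H4 entry, against 1.74% of 32851 mouse promoters. Some H2a and H2b windows overlap, such as those of Hist1h2ae and Hist1h2bg, which both have the octamer. The same match can therefore be counted in both classes. CCAAT was in all 6 H1, 18 H2a, 16 H2b and 10 H3 entries but in 3 of 12 H4 entries, against 37.4% of all promoters. TATAAA was in 4 of 6 H1, 11 of 18 H2a, 8 of 16 H2b, 4 of 10 H3 and 8 of 12 H4 entries, against 13.6% of all promoters. The 3 motifs do not overlap in their letters, and a match is a description, not a binding site.

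About 4820000 to 5550000 reads fell on transcripts in each library, estimated from coverage and length. Bmp4, the targeted gene, stood at 4.75 FPKM in the mutant against 24.8 in the control for the upper molar, and at 4.90 in the mutant against 27.2 in the control for the lower molar. FPKM is fragments per kilobase of transcript, scaled to the mapped reads. Bmp4 fell by 2.21 ± 0.11 on the log2 scale (standard error, limma adjusted p = 0.0008). All 11 dental mesenchyme markers were detected in each library, and their summed level was between 894 and 938 FPKM. The 10 epithelial markers summed to between 21.2 and 23.9 FPKM, the 6 nerve markers to at most 2.42 and the 5 muscle markers to at most 1.46, with Myod1, Myf5 and Myog at 0 in at least 1 library. The mutant lower library stood apart: it was the lowest of the 4 libraries for 38.3% of the 10502 genes tested, those averaging 1 FPKM or more. Its median-ratio scaling factor was 0.967, against 1.01 to 1.03 in the other libraries. The mutant upper library differed in another way, with the largest FPKM sum, 158494 against 148263 to 151441 in the other libraries.

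Of the 67 members, 61 averaged 1 FPKM or more over the libraries and were tested, namely 5 H1, 13 H2a, 18 H2b, 12 H3 and 13 H4 genes. The testis histone genes Hist1h1t and Hist1h2aa were below that level. Hist1h2ao, Hist1h2ap, Hist2h2aa1 and Hist2h2aa2 were listed at 0 in every library, and they overlap each other in pairs. The tested members spanned means of 2.08 to 1338 FPKM, and 14 of them were above 100 FPKM. Coordinates in the deposited tables, on build mm9, put 53 members on chromosome 13 between 21807632 and 24026720, 10 on chromosome 3 between 96023839 and 96074115, 3 on chromosome 11 between 58762413 and 58770176, and Hist4h4 on chromosome 6 at 136752589 to 136752900. The tables list spliced transcripts, so every value is of exons. Among tested members with 1 entry, Hist1h2bc and Hist1h2bp have a locus longer than the transcript and so an intron in these tables. Members resemble each other closely: a median of 51.4% of the 40-base windows of a member's transcript were also in another member, so a read could be moved between copies and single values are uncertain.

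Summed over all 67 members, histone RNA was close in the upper molars of both genotypes and lower in the mutant lower molar. The sum was 6575 FPKM in the mutant upper molar against 6831 in the control upper molar, which is 96.2%. It was 5015 FPKM in the mutant lower molar against 6632 in the control lower molar, which is 75.6%. As a share of each library's whole FPKM sum, histone genes made 4.15% in the mutant against 4.51% in the control for the upper molar, and 3.38% in the mutant against 4.38% in the control for the lower molar. The mutant upper molar thus lay below both controls in sum and in share, and the mutant lower molar lay further below. The log2 ratio of the sums was −0.06 in the upper molar, with a 95% counting interval of −0.08 to −0.04, and −0.40 in the lower molar, with −0.43 to −0.38. These exact binomial intervals rest on about 30300 to 41900 reads per library and cover counting error only, since reads from amplified cDNA are not independent molecules and no molar has a replicate. In tissue pools, fewer replicating cells and less histone RNA per cell cannot be told apart.

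**Figure D1:**
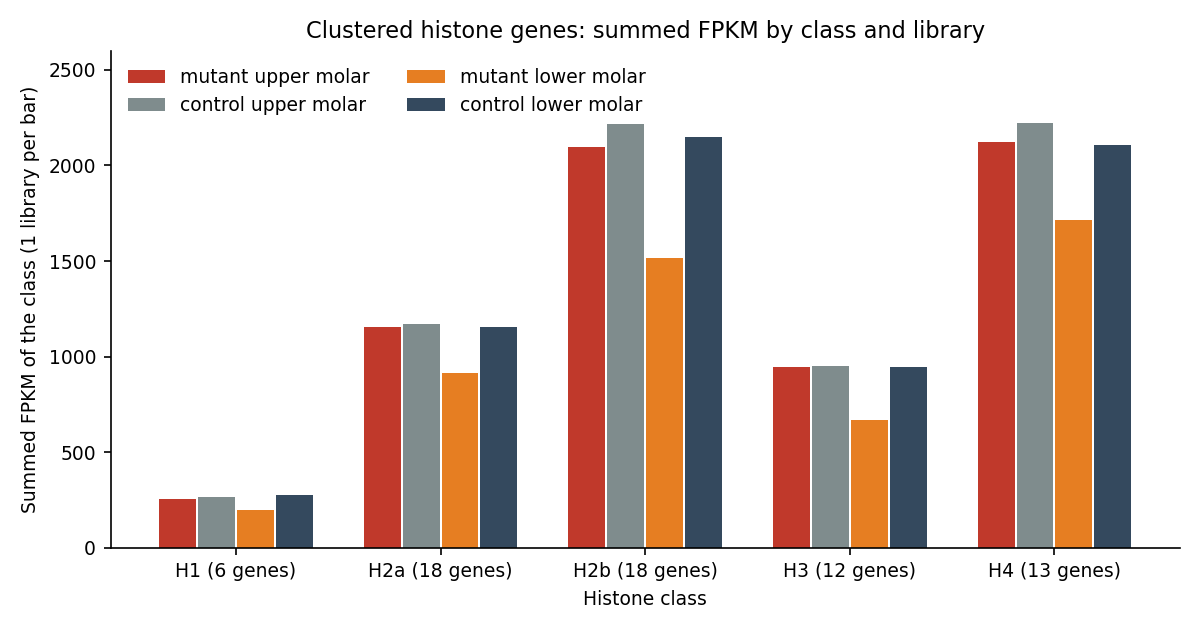
Summed FPKM of the members of each histone class (y axis, linear from 0) in each of the 4 libraries, 1 bar per library with no error bar because there is 1 library per group. In all 5 classes the mutant lower molar has the lowest bar, and the mutant upper molar stands at 94.4% to 99.6% of the control upper molar.

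Gene by gene, the members were also lower in the mutant lower molar. Differences here and below are mutant minus control on log2(FPKM + 1), where −1 means 2-fold lower. In the lower molar 55 of 61 members were below 0, against a background of 58.3% of all genes tested, and the median member stood at −0.41 against −0.05 for all genes. In the upper molar 38 of 61 members were below 0, against a background of 46.8%, and the median was −0.03 against 0.02. A difference of −0.3 or lower was seen in 42 of 61 members in the lower molar, against 12.7% of all genes, and in 3 of 61 in the upper molar, against 8.13%. On this scale no tested member was 2-fold lower or higher in either molar. Among all genes, 0.59% were 2-fold lower and 0.419% higher in the upper molar, and 0.619% were lower and 0.476% higher in the lower molar. Adding 1 shrinks differences of low genes: Hist1h4m was at 232% of control in FPKM in the upper molar but at 0.81 on this scale. The mutant lower library held the lowest of the 4 values for 53 of 61 members, against 38.3% of all genes: 5 of 5 H1, 10 of 13 H2a, 16 of 18 H2b, 12 of 12 H3 and 10 of 13 H4 genes.

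**Figure D2:**
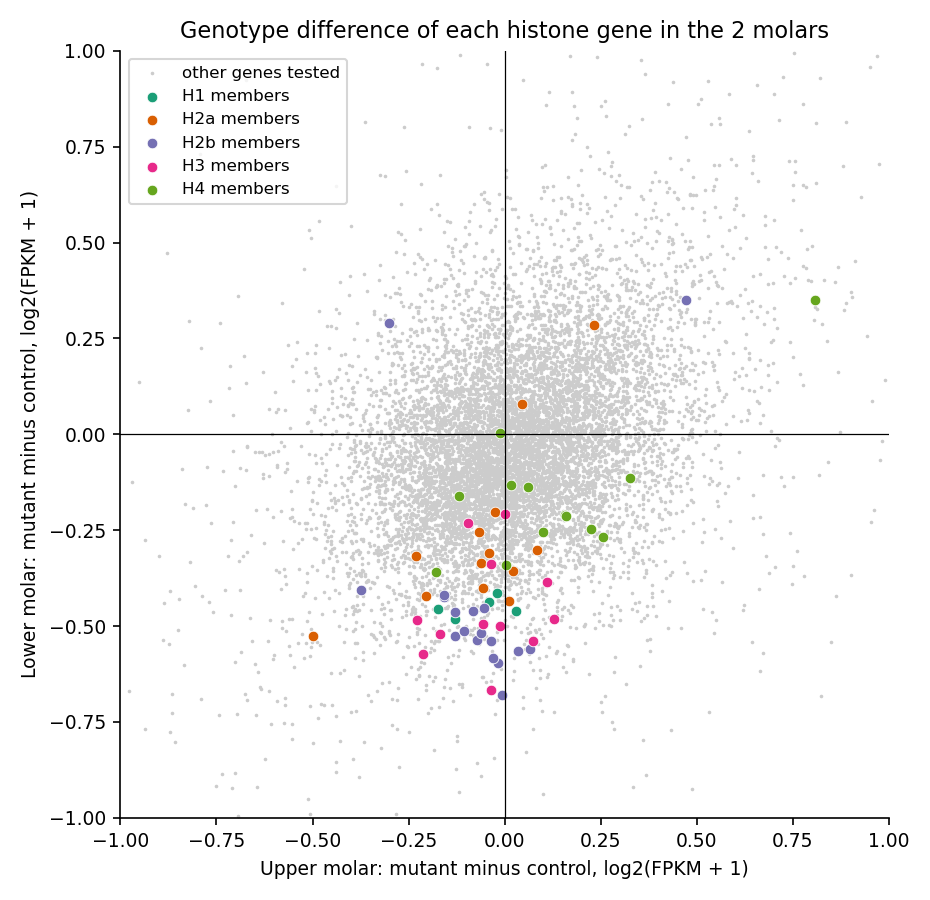
Difference of each gene, mutant minus control on log2(FPKM + 1), in the upper molar (x axis) and the lower molar (y axis), with 1 coloured point for each of the 61 tested histone members and grey points for 10261 other genes; 180 other genes lie beyond the axes. Most histone points form a band below 0 on the y axis and around 0 on the x axis, with 36 members below 0 in both molars and 19 above 0 in the upper and below 0 in the lower molar. Of all 10502 genes tested, 3403 were below 0 in both molars and 2717 were above 0 in the upper and below 0 in the lower.

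H1 genes make the linker histones. Their sum was 255 FPKM in the mutant against 268 in the control for the upper molar, and 199 in the mutant against 274 in the control for the lower molar, or 94.9% and 72.8% of control. Hist1h1b, the highest H1 gene, had 98.4 FPKM in the mutant against 101 in the control for the upper molar, and 76.0 in the mutant against 103 in the control for the lower molar. Hist1h1e, which overlaps Hist1h2be, had 51.6 against 58.4 FPKM, mutant against control, in the upper molar and 43.4 against 59.9 in the lower molar. In all 5 tested H1 genes the mutant lower library was the lowest, and the differences there ran from −0.48 to −0.41. In the upper molar they ran from −0.17 to 0.03. For all genes tested the middle 50% ran from −0.19 to 0.11 in the lower molar and from −0.13 to 0.17 in the upper. The H1 genes come from the same libraries and are not replicates of a molar. Hist1h1c was also lower in both mutant libraries, with 48.1 FPKM in the mutant against 52.7 in the control for the upper molar, and 39.3 in the mutant against 55.3 in the control for the lower molar.

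H2a genes make the core histone H2A. They summed to 1153 FPKM in the mutant against 1173 in the control for the upper molar, and to 917 in the mutant against 1157 in the control for the lower molar, or 98.3% and 79.3% of control. Hist1h2ak, the highest, had 442 FPKM in the mutant against 438 in the control for the upper molar, and 329 in the mutant against 445 in the control for the lower molar. Hist1h2ab had 99.4 against 101 FPKM, mutant against control, in the upper molar and 84.8 against 97.7 in the lower molar. Hist1h2ai was close to it in level, with 97.4 against 102 FPKM in the upper and 81.0 against 96.7 in the lower molar, again mutant against control. The median H2a difference was −0.04 for the upper molar and −0.32 for the lower. Hist1h2ac, a low gene, was the H2a member furthest below 0 over both molars. It had 2.31 FPKM in the mutant against 3.67 in the control for the upper molar, and 2.42 in the mutant against 3.92 in the control for the lower molar. Both mutant libraries were below both controls, a mean difference of −0.51 ± 0.12 (standard error, limma adjusted p = 0.15). Hist1h2ae had 19.1 against 22.1 FPKM, mutant against control, in the upper molar and 14.6 against 19.9 in the lower molar, where the mutant lower value was the lowest. Hist2h2ab and Hist3h2a, named after their values were seen, were the H2a genes above 0 in the lower molar. Hist2h2ab had 45.9 FPKM in the mutant against 38.9 in the control for the upper molar, and 39.98 in the mutant against 32.6 in the control for the lower molar.

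H2b genes make the partner of H2A. Their sum was 2095 FPKM in the mutant against 2219 in the control for the upper molar, and 1518 in the mutant against 2148 in the control for the lower molar, or 94.4% and 70.7% of control. With a median difference of −0.52, the H2b genes lay lowest of the classes in the lower molar, and 16 of 18 were at −0.3 or lower there. Hist1h2bm, the highest H2b gene, had 458 FPKM in the mutant against 511 in the control for the upper molar, and 340 in the mutant against 456 in the control for the lower molar. Hist1h2bl had 435 against 457 FPKM, mutant against control, in the upper molar and 304 against 442 in the lower molar. Hist1h2bf had 228 against 230 FPKM in the upper molar and 148 against 224 in the lower molar, mutant against control, so the genotypes were close in the upper molar and apart in the lower. A low gene, Hist2h2bb, was below control in both molars to a like degree, with 14.8 FPKM in the mutant against 19.5 in the control for the upper molar, and 13.4 in the mutant against 18.1 in the control for the lower molar (limma adjusted p = 0.21). Hist2h2be was above control in both molars. It had 2.85 FPKM in the mutant against 1.77 in the control for the upper molar, and 2.19 in the mutant against 1.51 in the control for the lower molar, a mean difference of 0.41 ± 0.13 (standard error, limma adjusted p = 0.28). Its deposited transcript is 2618 bases, far longer than the coding region of an H2b gene. Hist1h2ba, the testis H2b gene and named after its values were seen, was listed at 24.2 FPKM in the mutant against 26.1 in the control for the upper molar, and 17.4 in the mutant against 25.2 in the control for the lower molar. Of its 40-base windows 40% were in another member.

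H3 genes make the core histone H3. They summed to 947 FPKM in the mutant against 951 in the control for the upper molar, and to 668 in the mutant against 945 in the control for the lower molar, or 99.6% and 70.7% of control. All 12 were lowest in the mutant lower library, and their differences in the lower molar ran from −0.67 to −0.21. Hist2h3b had 274 FPKM in the mutant against 277 in the control for the upper molar, and 192 in the mutant against 272 in the control for the lower molar. Hist2h3c1 overlaps the pseudogene Hist2h3c2-ps, and had 253 against 241 FPKM, mutant against control, in the upper molar and 164 against 239 in the lower molar. Hist1h3e had 88.4 against 81.9 FPKM in the upper molar and 64.4 against 84.4 in the lower molar, mutant against control. These 3 genes had nearly equal levels in the other libraries and a single low one. In Hist1h3c and Hist1h3d both mutant values were lower than both controls. Hist1h3c had 32.6 FPKM in the mutant against 37.9 in the control for the upper molar, and 22.5 in the mutant against 34.0 in the control for the lower molar, a mean difference of −0.39 ± 0.12 (standard error, limma adjusted p = 0.27). Hist1h3d had 33.6 against 39.5 FPKM, mutant against control, in the upper molar and 32.0 against 45.1 in the lower molar (limma adjusted p = 0.28).

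H4 genes make the core histone H4, which all of them encode. Their sum was 2124 FPKM in the mutant against 2220 in the control for the upper molar, and 1713 in the mutant against 2109 in the control for the lower molar, or 95.7% and 81.2% of control. Hist1h4d alone held 63.9% of the class's sum in mutant lower molars and 66.7% in control ones. Its own level was 1338 FPKM in the mutant against 1514 in the control for the upper molar, and 1095 in the mutant against 1406 in the control for the lower molar, a mean difference of −0.27 ± 0.10 (standard error, limma adjusted p = 0.33). Without Hist1h4d the H4 sum was 786 FPKM in the mutant against 706 in the control for the upper molar, and 617 in the mutant against 703 in the control for the lower molar, so the upper molar's log2 ratio turned to 0.16. In the upper molar 10 of 13 H4 genes were above 0, against 5573 of the 10502 genes tested, and the median was 0.10. In the lower molar 11 of 13 were below 0, against 58.3% of all genes, with a median of −0.21. Of 305 other genes with transcripts of 300 to 700 bases, 237 were above 0 in the upper molar, with a median of 0.19. In the lower molar 119 of these 305 were below 0, with a median of 0.08. Hist1h4c had 173 FPKM in the mutant against 148 in the control for the upper molar, and 123 in the mutant against 146 in the control for the lower molar. Hist2h4 had 120 against 100 FPKM, mutant against control, in the upper molar and 96.0 against 116 in the lower molar. For both genes the mutant libraries thus held the highest and the lowest value. Hist1h4m, which overlaps Hist1h4n, had 3.04 FPKM in the mutant against 1.31 in the control for the upper molar, and 3.63 in the mutant against 2.63 in the control for the lower molar. It rests on about 6.94 to 20.7 reads per library, and its mean difference was 0.58 ± 0.15 (standard error, limma adjusted p = 0.20). Hist4h4, the lone gene of its locus and named after its values were seen, had 57.6 FPKM in the mutant against 58.1 in the control for the upper molar, and 51.9 in the mutant against 51.8 in the control for the lower molar. It is the tested member with the smallest difference in the lower molar.

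**Figure D3:**
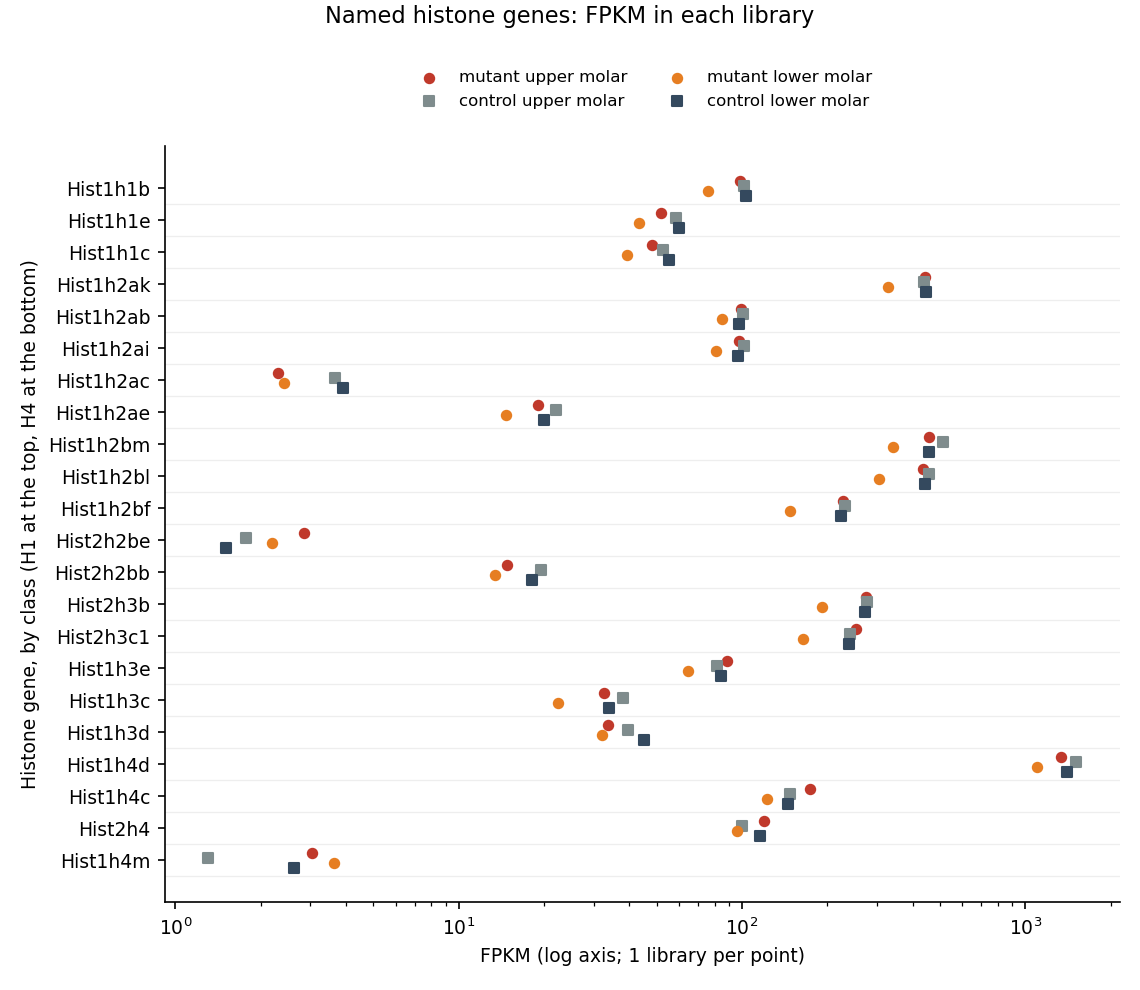
FPKM on a log axis of 22 histone genes, ordered by class from H1 at the top to H4 at the bottom, with 1 point per library and no error bars because each group is 1 library. The mutant lower point lies left of the other 3 in 19 of the 22 genes; in Hist1h2ac it lies beside the mutant upper point, and in Hist2h2be and Hist1h4m both mutant points lie right of their control.

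H2b had the lowest class median in both molars and H4 the highest. In the lower molar the class medians were −0.52 for H2b, −0.49 for H3, −0.46 for H1, −0.32 for H2a and −0.21 for H4. The H4 members ran from −0.36 to 0.35 and the H1 members from −0.48 to −0.41. Members of a class come from the same libraries and are not replicates. In the upper molar the class medians were −0.07 for H2b, −0.04 for H3, H1 and H2a, and 0.10 for H4. There were 11 pairs of an H2a and an H2b gene no more than 1000 bases apart. The H2b difference was further below 0 than the H2a one in 8 pairs in the lower molar and in 2 in the upper. The lower-molar medians of these pairs were −0.54 for H2b and −0.34 for H2a. Hist2h2be stands in 2 of the pairs, and its partner Hist2h2ab is separated from it by Hist2h2ac. The pair of Hist3h2a with the pseudogene Hist3h2bb-ps is among both the 8 and the 2. The 49 tested Hist1 members had a lower-molar median of −0.42 and the 8 tested Hist2 members −0.31. The 3 tested Hist3 members had a median of 0.08 there and ran from −0.68, for Hist3h2bb-ps, to 0.29, for Hist3h2ba. In the upper molar Hist3h2ba was at 18.4 FPKM in the mutant against 23.0 in the control. In the lower molar it was at 19.7 FPKM in the mutant against 16.0 in the control.

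The lower-molar difference was of like size when the members were split by transcript length and by likeness to each other. Members with a transcript longer than 1000 bases (10 genes) had a lower-molar median of −0.43 and the other 51 a median of −0.41. Members sharing under 20% of their windows (13 genes) had −0.41, as did the 48 that shared more. With a stem-loop match the median was −0.36 (41 genes), and without it −0.45 (20 genes). Other genes with short transcripts of 300 to 700 bases (305 genes) had medians of 0.19 for the upper molar and 0.08 for the lower. The 61 members, at −0.03 and −0.41, lay below these short-transcript genes in both molars. Other genes averaging 20 FPKM or more (1160 genes) had 0.05 and −0.08.

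Across both molars, limma was fitted to all 10502 genes with terms for genotype and molar. It called 84 genes at an adjusted p under 0.05, a background of 0.8% with 0.343% higher and 0.457% lower, and none of the 61 members. The lowest adjusted p among members was 0.15, for Hist1h2ac, and 17 members had an unadjusted p under 0.05, 14 lower and 3 higher, against a background of 13.2%. With 1 library per group, a gene's spread came from the molars' disagreement about the genotype difference and from a prior over all genes. The prior carried 5.77 degrees of freedom against 1 for the gene itself. These p-values and the standard errors therefore do not measure the spread between embryos. Of the 61 members, 36 were lower in mutants in both molars, against 32.4% of all genes, and 4 were higher in both, against 27.2%. With 3 libraries a molar term leaves no residual degree of freedom, so the fits without 1 library had genotype as their only term. They set 1 library of a genotype against both molars of the other. Their p-values rest on the spread between those molars, so only effects are given here. Without the mutant lower library the median effect of the members was −0.04, against 0.02 for all genes. Without the mutant upper library it was −0.41, against −0.05. Without the control upper library it was −0.22, against −0.02, and without the control lower library −0.22, against −0.02.

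Set against the other molar of the same genotype, the lower molar had less histone RNA in mutants and about the same in controls. The members summed to 76.3% of the upper molar's level in the lower molar of mutants and to 97.1% in that of controls. In mutants 58 of 61 members were below 0 for lower minus upper, against a background of 63.3%, with a median of −0.34. In controls 36 of 61 were below 0, against 50.8%, with a median of −0.01. Each of these is a single pair of libraries, and the 2 comparisons share libraries with those by genotype, so they do not add independent support.

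Lists of genes that act with histones or with the cell cycle had lower-molar medians nearer to 0 than the members' −0.41, apart from the G2 and M phase list. The lists were chosen from knowledge of the pathway with earlier results of these data known, and limma called no gene of any of them. Among 23 tested genes of histone mRNA 3′ end processing and transcription, 15 (65.2%) were below 0 in the lower molar, near the 58.3% of all genes. In the upper molar 10 (43.5%) were below 0, near the 46.8% of all genes. The medians were −0.10 for the lower molar and 0.03 for the upper. Slbp, whose protein binds the stem-loop, had 21.4 FPKM in the mutant against 20.6 in the control for the upper molar, and 17.3 in the mutant against 21.5 in the control for the lower molar. Lsm10, a protein of the U7 particle, had the list's lowest adjusted p by limma, 0.10, with 7.23 FPKM in the mutant against 3.76 in the control for the upper molar, and 8.18 in the mutant against 5.56 in the control for the lower molar. Snrpg, an Sm core protein, had 175 against 151 FPKM, mutant against control, in the upper molar and 144 against 145 in the lower molar. Snrpe, another Sm core protein, had 32.3 against 27.0 FPKM in the upper and 25.8 against 29.7 in the lower molar. Both mutant values of Lsm10 were above both controls, unlike those of Slbp, Snrpg and Snrpe.

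Histone chaperones carry new histones to DNA. Of 23 tested, 19 were below 0 in the lower molar and 7 in the upper, against 58.3% and 46.8% of all genes. The medians were −0.18 and 0.06. Npm1, a chaperone of the nucleolus, had 691 FPKM in the mutant against 682 in the control for the upper molar, and 651 in the mutant against 774 in the control for the lower molar. Nap1l1, an H2A and H2B chaperone, had 70.7 against 71.0 FPKM, mutant against control, in the upper and 71.8 against 79.9 in the lower molar. Set, of the same family, had 48.4 against 48.0 FPKM in the upper and 39.6 against 48.8 in the lower molar. None of the list was called by limma.

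Histone variants outside the clusters are mostly made from polyadenylated mRNA, and several are not tied to replication. Of 11 tested, 10 were below 0 in the lower molar and 7 in the upper, against 58.3% and 46.8% of all genes. The medians were −0.28 and −0.05. H2afz, which makes the variant found at promoters, had 765 FPKM in the mutant against 791 in the control for the upper molar, and 535 in the mutant against 770 in the control for the lower molar. H2afx, the variant phosphorylated at DNA breaks, had 275 against 306 FPKM, mutant against control, in the upper and 215 against 290 in the lower molar. H3f3a, a replacement H3 gene, had 457 against 348 FPKM in the upper and 328 against 356 in the lower molar. H2afv, the H2afz paralogue, had the lowest adjusted p of the list, 0.053 by limma, with 6.05 FPKM in the mutant against 10.3 in the control for the upper molar, and 5.07 in the mutant against 8.72 in the control for the lower molar.

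Genes of S phase and of G2 and M phase were also lower in the mutant lower molar, and their part in the histone difference was not tested. Of 40 S phase genes 37 were below 0 in the lower molar and 16 in the upper, against 58.3% and 46.8% of all genes. Their medians were −0.28 and 0.04, and their sum was 79.7% of control in the lower and 103% in the upper molar. Pcna, the replication clamp, had 66.2 FPKM in the mutant against 63.3 in the control for the upper molar, and 47.0 in the mutant against 60.4 in the control for the lower molar. Gins2, of the replicative helicase, had 38.4 against 35.2 FPKM, mutant against control, in the upper and 30.9 against 37.0 in the lower molar, and Uhrf1, needed to keep DNA methylation at replication, had 28.5 against 27.2 and 23.5 against 28.3. Of 20 G2 and M phase genes all were below 0 in the lower molar and 19 in the upper, against the same backgrounds. Their medians were −0.48 and −0.18. By limma 13 of the 20 had an unadjusted p under 0.05, against 13.2% of all genes and 1 of the 40 S phase genes. Mki67, a marker of proliferating cells, had 47.8 FPKM in the mutant against 64.7 in the control for the upper molar, and 41.2 in the mutant against 64.0 in the control for the lower molar (limma adjusted p = 0.12). Top2a, the topoisomerase of mitotic chromosomes, had 57.6 against 62.8 FPKM, mutant against control, in the upper and 45.4 against 65.8 in the lower molar, and Ccna2, cyclin A, had 38.5 against 42.8 and 33.0 against 43.7. The histone members were thus nearer to the S phase list in the upper molar and to the G2 and M phase list in the lower.

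**Figure D4:**
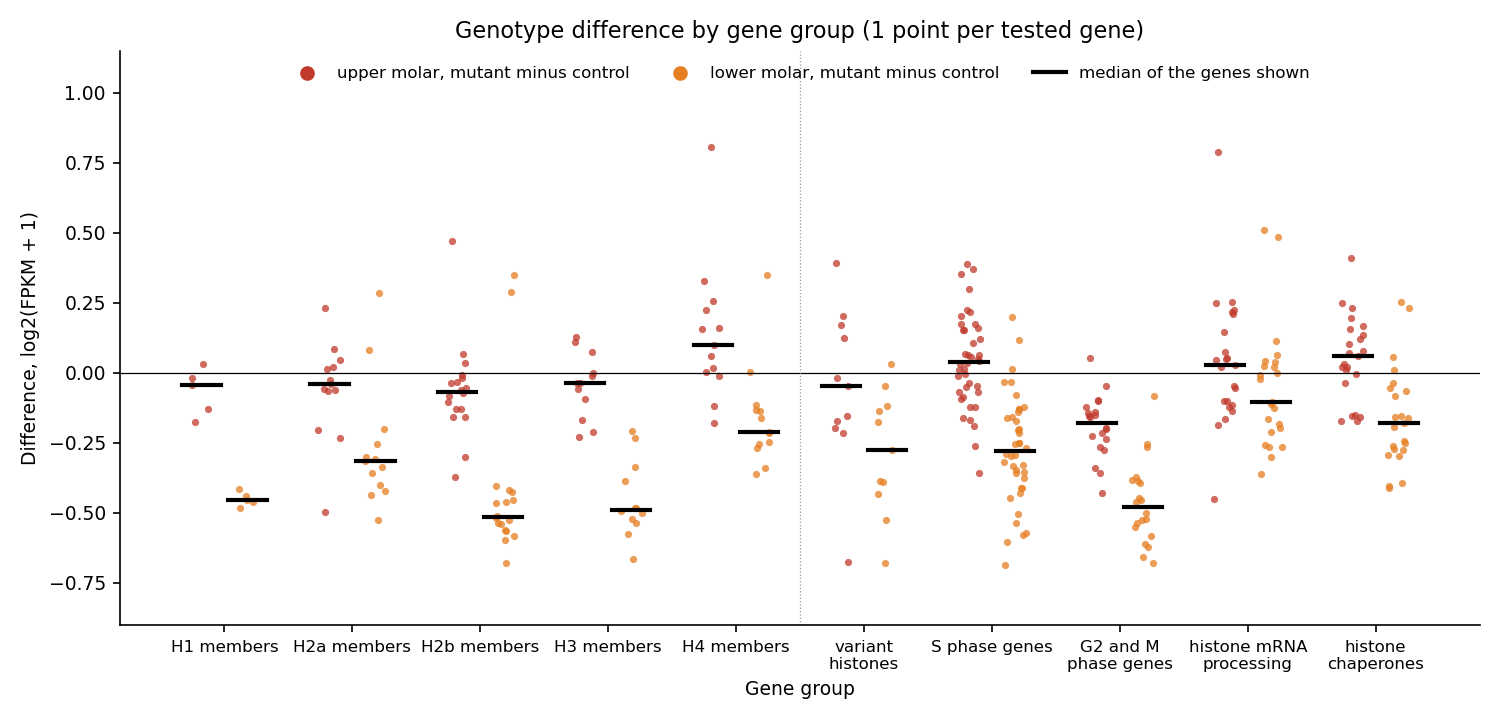
Difference, mutant minus control on log2(FPKM + 1), of each tested gene in the 5 histone classes (left of the dotted line) and in 5 lists of related genes (right), with red points for the upper molar, orange points for the lower molar and black bars for medians over genes. The orange bars of all 10 groups lie below their red bars, from −0.52 for H2b to −0.10 for the mRNA processing list.

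Markers of other cell types differed between the libraries too, and their part in the histone difference was not tested. The 9 red blood cell genes summed to 932 FPKM in the mutant against 1034 in the control for the upper molar, and to 1090 in the mutant against 918 in the control for the lower molar, and 7 of the 9 were higher in the mutant lower molar. The 7 endothelial markers summed to 29.6 FPKM in the mutant against 40.7 in the control for the upper molar, and to 35.5 in the mutant against 39.0 in the control for the lower molar. The 5 white blood cell markers summed to between 4.29 and 5.82 FPKM. The mutant lower molar had the highest red blood cell sum and the lowest histone sum, 5015 FPKM. The control upper molar, with the next highest red blood cell sum, had the highest histone sum, 6831 FPKM.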

How the data were processed

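RNA of laser-captured mesenchyme was turned into cDNA with a NuGEN Ovation v2 assay and into libraries with a Nextera kit, per the labels' protocols. Amplification of little RNA can distort single values. Alignment to mm9 used TopHat 1.4.1 with Bowtie 0.12.7, per the submitters' processing notes. The estimator's version, and its handling of reads with several alignments, are not given in the sources used here. The authors' deposited FPKM values were given per transcript, in the layout of Cufflinks output, with a deposited coverage column, per the file headers. In each library coverage and FPKM kept 1 fixed ratio.

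FPKM was summed over 75 histone entries of 28107. Hist1h2bq has 2 entries with identical FPKM, and both were summed. Genes averaging 1 FPKM or more over all 4 libraries were tested as log2(FPKM + 1) with limma 3.58.1 in R 4.3.3, with terms for genotype and molar, an intensity trend, Benjamini-Hochberg adjustment at 0.05 and 1 residual degree of freedom. The procedure was tested on simulated data. Reads were estimated as coverage times length divided by 44.2 bases, the span of a single read, so no test on counts was run. Samples were grouped by genotype and molar labels. Named genes were Bmp4, then in each class the 3 members highest in FPKM, any called and the 2 with the largest effect, and in each list the called genes and the 3 highest. Lsm10 and H2afv were named beyond this rule for the lowest adjusted p of their lists. Among the marker lists, sums and counts are given in place of genes. The members and lists were chosen with earlier results of these data known. Sequences came from RefSeq promoters on GRCm38.p6 and from GENCODE M21 transcripts, matched by symbol and identifier. Members are near-identical copies in part, so class sums are surer than single values. Alternatives varied the pseudocount, filter, scaling, entries kept, model and libraries.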

Additional observations from a re-analysis of the deposited data

Results flagged for a closer look

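The results below lay above 0 for the upper molar but below 0 for the lower, as mutant minus control on log2(FPKM + 1). Each molar has 1 library per genotype, and the difference between the molars was not tested. The median of the 13 H4 members was 0.10 for the upper molar and −0.21 for the lower. Among members, Hist1h2ak stood at 0.012 for the upper molar and −0.44 for the lower, Hist2h3c1 at 0.075 and −0.54, and Hist1h3e at 0.11 and −0.39. Hist1h4c stood at 0.23 and −0.25, and Hist2h4 at 0.26 and −0.27, in the same order. Such a split is not particular to histones, since 2717 of the 10502 genes tested were above 0 for the upper and below 0 for the lower molar. Among the 61 tested members it was seen in 19, and 9 of those were among the 13 H4 genes.

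Among genes of histone mRNA processing, Snrpg stood at 0.22 for the upper molar and −0.0082 for the lower, Snrpe at 0.25 and −0.20, and Slbp at 0.053 and −0.30. Among chaperones, Npm1 stood at 0.020 and −0.25 and Set at 0.011 and −0.30. The variant H3f3a stood at 0.39 and −0.12. Of the S phase genes, Pcna stood at 0.064 and −0.36, Gins2 at 0.12 and −0.25, and Uhrf1 at 0.065 and −0.25.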

How the results depend on the processing

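The members' medians kept their sign in both molars under every alternative pseudocount, filter, scaling and choice of entries: from −0.42 to −0.34 in the lower molar and from −0.05 to −0.03 in the upper. limma called no member under any of the 14 settings. Calls over all genes moved more, from 36 higher and 48 lower. They were 0 and 0 with no filter, 6 higher and 9 lower after median-ratio rescaling, 12 and 26 with no intensity trend, 3 and 4 with no molar term, 83 higher among genes averaging 5 FPKM or more, and 69 higher without entries under 0.3 kb. Leaving out 1 library in turn gave 1 to 10 higher and 4 to 8 lower, and 0 to 0 for members. Each such fit changes 2 things at once, since it has 1 library fewer and no molar term, which 3 libraries cannot carry. With a pseudocount of 0.1, 1 member, Hist1h4m, passed 2-fold higher in the upper molar. Of the log2 ratios of class sums, H4 in the upper molar turned from −0.06 to 0.16 without Hist1h4d. In the lower molar rescaling gave −0.27 for H2a, −0.44 for H2b, −0.44 for H3 and −0.24 for H4, and leaving out the highest member gave −0.28 for H2a and −0.19 for H4.

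The mean effects of some single genes turned sign. After rescaling Hist1h4c was at 0.011 and Hist2h4 at 0.015. Leaving out 1 library in turn, again with no molar term, gave from −0.43 to 0.0015 for Hist1h2ak, −0.61 to 0.0018 for Hist1h2bf, −0.51 to 0.00016 for Hist2h3b, −0.54 to 0.080 for Hist2h3c1, −0.36 to 0.088 for Hist1h3e, −0.26 to 0.24 for Hist1h4c and −0.16 to 0.15 for Hist2h4. It gave −0.036 to 0.245 for Snrpg, −0.13 to 0.18 for Snrpe, −0.27 to 0.025 for Slbp, −0.16 to 0.0047 for Nap1l1, −0.28 to 8.8e-05 for Set, −0.10 to 0.38 for H3f3a, −0.39 to 0.097 for Pcna, −0.22 to 0.088 for Gins2 and −0.23 to 0.038 for Uhrf1. The molar term already sets mutant against control within each molar. No paired analysis was possible beyond that, because each combination of genotype and molar has 1 library and the labels carry no replicate number. Depth limits the low members most, such as Hist1h4m.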
